A study of Mus musculus with 12 samples.

Results

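Cyclins and cyclin-dependent kinases (CDKs) are described here across 12 libraries of mouse round spermatids. The members are 44 of the 28643 genes in the deposited table. Their symbols are those of a cyclin (Ccn and a letter, 26 genes) or of a numbered CDK (Cdk and a number, 18 genes). Cdk14 was left out by name. The symbol pattern uses no measured value, but the members were chosen with earlier results of these data known. Round spermatids were sorted by flow cytometry, with cycloheximide to hold ribosomes in place, from testes of 8-week-old male mice. The control group was Igf2bp3+/- and the knockout group Igf2bp3-/-, so both carried at least 1 copy of a frameshift allele, made with Cas9 in C57BL/6 zygotes, and no mouse with 2 intact copies was among the libraries. By the study's methods, knockout males with impaired fertility were selected for these experiments. A part of each extract was kept as total RNA (RNA-seq) and the rest was spun on a sucrose gradient to collect mRNAs on 4 or more ribosomes, which were also sequenced (RNC-seq, ribosome nascent-chain complex sequencing). Each genotype had 3 RNA-seq and 3 RNC-seq libraries. The study calls the 3 of each group biological replicates, although the labels do not tie a library to a mouse.

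CDKs are protein kinases that are inactive until a cyclin binds them, and the cyclin sets both when and on what the kinase acts. The cell cycle pairs (A, B, D and E cyclins with Cdk1, Cdk2, Cdk4 and Cdk6) drive DNA replication and division. The transcription pairs act on RNA polymerase II: cyclin H with Cdk7 in the general factor TFIIH, cyclin C with Cdk8 or Cdk19 in Mediator, cyclin T with Cdk9, cyclin K with Cdk12 or Cdk13, and cyclin L with Cdk11. Round spermatids have finished meiosis and no longer divide, and many of their mRNAs are stored before they are translated.

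The 8 round spermatid markers (Acrv1, Spaca1 and others) all had a mean RNA-seq FPKM above 1. They summed to between 1457 and 1646 FPKM in Igf2bp3+/- and between 1863 and 2121 in Igf2bp3-/- RNA-seq. In RNC-seq the sums were 1786 to 2192 and 2229 to 2551. The sums did not overlap between genotypes in either assay, but not every marker was separated. Acrv1, Spaca1 and Tssk2 overlapped in RNA-seq, and Acrv1, Spaca1, Tssk2, Catsper3 and Pgk2 in RNC-seq. FPKM is a read density scaled for transcript length and library size. The sum over 10 spermatocyte markers was 109 to 154 in RNA-seq, and 9 of the 10 were above 1. Leydig cell markers, of which 6 of 8 were above 1, summed to between 16 and 23.2 in Igf2bp3+/- and between 51.1 and 57.4 in Igf2bp3-/- RNA-seq. Igf2bp3 itself was at 33.4 to 38.6 in Igf2bp3+/- and at 31.4 to 32.5 FPKM in Igf2bp3-/- RNA-seq. A frameshift need not lower an mRNA, so its level does not check the genotype labels. Among the RNC-seq libraries, Igf2bp3-/- replicate 2 had the lowest correlation with the others of its group (r of 0.966 and 0.961 over log2 values of genes).

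Many cyclin and CDK transcripts were present although the cells no longer divide. Most listed mitotic proliferation markers were present too. The markers summed to between 254 and 303 FPKM in RNA-seq, and 7 of the 9 had a mean above 1. The sum was led by Plk1 (mean 147) and Birc5 (57.8), whereas Mki67 (0.372) and Mcm2 (0.206) were under 1. A mean RNA-seq FPKM above 1 was found for 32 of the 44 members (72.7%), against 43.2% of all 28643 genes, and 14 members were above 10. The level was concentrated in a few genes: Ccna1, Ccnb2, Ccnd3, Ccnk, Ccnb1 and Cdk16 made up 74.5% to 80.8% of the members' total FPKM, depending on the library.

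The highest transcript was Ccna1, the A-type cyclin of the male germ line that is needed for meiosis. Its FPKM was 214, 231 and 237 in Igf2bp3+/- and 216, 249 and 250 in Igf2bp3-/- RNA-seq. Ccna2, the A-type cyclin of dividing somatic cells, was at 0.362 to 0.823 FPKM over the same 6 libraries. The B-type cyclins that pair with Cdk1 followed. Ccnb2 had a mean of 170 and Ccnb1 of 72.7, whereas Ccnb3, a meiotic B-type cyclin, was at 0.200 FPKM. Among D cyclins, which bind Cdk4 and Cdk6, Ccnd3 was at 125 while Ccnd1 was at 0.434 and Ccnd2 at 0.0686. The Cdk2 partners Ccne1 and Ccne2 were at 1.79 and 0.745. Ccnf, an F-box protein that marks substrates for degradation, was at 17.7. In the A and D families the leading gene was above its paralogs in every library of either assay. Ccnb1 has near-identical copies in the genome (Ccnb1-ps, Gm12856 and Gm8416), and its reads could be split between them.

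**Figure D1:**
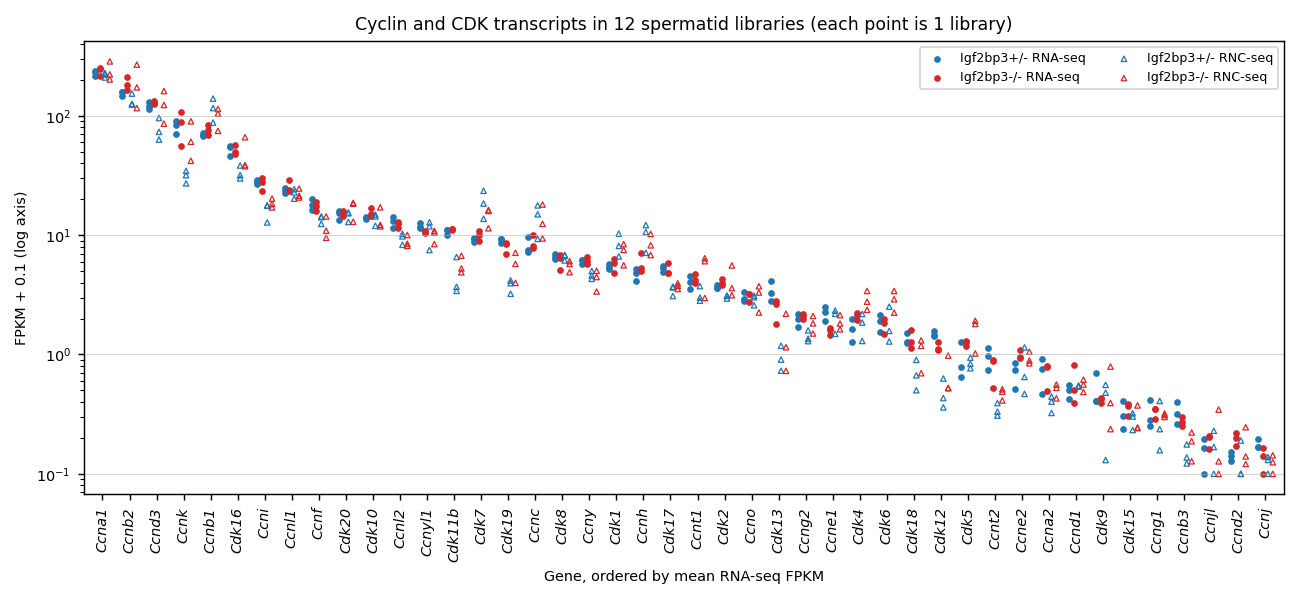
FPKM + 0.1 on a log axis for all 44 members, ordered by mean RNA-seq FPKM, with 1 point per library, coloured by genotype and shaped by assay. Levels run from 233 for Ccna1 to 0.0565 for Ccnj, and in Igf2bp3+/- the RNC-seq points of Ccnk, Cdk11b, Cdk12 and Cdk13 lie under those of RNA-seq.

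The cell cycle kinases were far below Ccna1, Ccnb2, Ccnb1 and Ccnd3. Cdk2 was above Ccne1 and Ccne2, and Cdk4 and Cdk6 were above Ccnd1 and Ccnd2. Cdk1 had a mean RNA-seq FPKM of 5.45, Cdk2 of 3.75, Cdk4 of 1.77 and Cdk6 of 1.71. Cdk4 shares 19.7% of its exonic bases with Tspan31 on the opposite strand, and strand use in quantification is not stated. Opposite-strand genes also overlap 23.4% of the exonic bases of Ccnd1, 17.4% of Ccne2, 12.5% of Ccna2 and 10.1% of Ccna1. The transcription cyclins were led by Ccnk at 82.6, then Ccnl1 at 24.4, Ccnl2 at 12.5, Ccnc at 8.30, Ccnh at 5.16, Ccnt1 at 4.10 and Ccnt2 at 0.758. The transcription kinases were led by Cdk11b at 10.9, then Cdk7 at 9.48, Cdk19 at 8.37, Cdk8 at 6.28, Cdk13 at 2.81, Cdk12 at 1.22 and Cdk9 at 0.361. Cyclin K thus stood far above both of its kinases on this scale.

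The remaining kinases were led by Cdk16, a PCTAIRE kinase needed for sperm formation, at a mean of 51.8 FPKM. Ccny and Ccnyl1, cyclins that bind Cdk16, were at 5.99 and 11.2. The PCTAIRE relatives Cdk17 and Cdk18 were at 5.11 and 1.24. Cdk20, a kinase linked to cilia, was at 14.9, Cdk10 at 14.6, Cdk5, best known in neurons, at 0.977 and the little studied Cdk15 at 0.235. Among the atypical cyclins Ccni was at 27.5, Ccno, which acts in cells with many cilia, at 2.93, Ccng2 at 1.92 and Ccng1 at 0.223. Ccnj, Ccnjl and Ccnd2 were under 0.1 FPKM on average and entered no test.

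The promoters of the 3 highest A-type and B-type cyclins are shown because CCAAT boxes are a known feature of cell cycle promoters. Windows run from 250 bases before to 50 after the RefSeq start (GRCm38.p6, all on the minus strand): Ccna1 at chr3:55055006-55055305, Ccnb1 at chr13:100786437-100786736 and Ccnb2 at chr9:70421505-70421804. Capitals mark CCAAT or its reverse complement ATTGG, and TTTGAA (a CHR-type motif) or its reverse complement TTCAAA, which were searched on both strands.
Ccna1: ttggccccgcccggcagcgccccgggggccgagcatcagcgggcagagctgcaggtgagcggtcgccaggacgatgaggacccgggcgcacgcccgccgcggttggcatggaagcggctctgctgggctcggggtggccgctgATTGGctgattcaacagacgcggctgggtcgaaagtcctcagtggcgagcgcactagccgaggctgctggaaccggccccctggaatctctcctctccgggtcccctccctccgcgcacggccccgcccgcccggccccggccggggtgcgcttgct
Ccnb1: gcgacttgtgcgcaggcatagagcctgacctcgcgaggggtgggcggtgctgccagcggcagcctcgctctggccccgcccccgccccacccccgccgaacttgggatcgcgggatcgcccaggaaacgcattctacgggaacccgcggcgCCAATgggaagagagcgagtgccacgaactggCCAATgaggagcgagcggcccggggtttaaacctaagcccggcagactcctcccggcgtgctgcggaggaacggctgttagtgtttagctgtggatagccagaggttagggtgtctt
Ccnb2: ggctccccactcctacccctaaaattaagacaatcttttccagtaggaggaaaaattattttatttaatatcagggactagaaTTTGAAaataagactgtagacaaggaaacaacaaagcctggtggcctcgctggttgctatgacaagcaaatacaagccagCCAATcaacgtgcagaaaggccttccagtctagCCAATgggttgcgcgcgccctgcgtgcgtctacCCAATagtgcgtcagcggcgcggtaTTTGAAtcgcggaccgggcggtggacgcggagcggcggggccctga

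The window of Ccnb2 held 3 CCAAT and 2 TTTGAA matches, that of Ccnb1 2 CCAAT matches, and that of Ccna1 1. Promoters were found for 35 members in 37 windows. CCAAT was in 19 of the 37, and in 37.4% of all 32851 windows of that length. TTTGAA was in 5 of the 37, and in 17.9% of all windows.

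The first comparison asked which members took a larger or smaller share of the polysomal RNA than of the total RNA in the control genotype. In Igf2bp3+/- spermatids 19 of the 41 members tested differed between RNC-seq and RNA-seq at an adjusted p under 0.05, against 43.6% of all genes tested. Only 5 members were above their RNA-seq level: the TFIIH pair Cdk7 and Ccnh, the mitotic pair Cdk1 and Ccnb1, and the Mediator cyclin Ccnc. The 14 members below were led by the elongation kinases Cdk12 and Cdk13, their cyclin Ccnk, Ccnt2, Cdk11b and the Mediator kinase Cdk19. The share higher was 12.2% against 17.3% of all genes, and the share lower was 34.1% against 26.3%.

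Cdk7, the kinase that activates other CDKs and phosphorylates RNA polymerase II, had 9.43, 9.11 and 8.70 FPKM in RNA-seq and 23.4, 13.6 and 18.3 in RNC-seq. Ccnh, its cyclin, had 4.71, 5.13 and 4.03 in RNA-seq and 10.5, 7.01 and 12.0 in RNC-seq. Every RNC-seq library of either gene was above every RNA-seq library. The log2 difference was 0.98 ± 0.20 (SE, n = 3 and 3) with an adjusted p of 0.0044 for Cdk7, and 1.05 ± 0.22 with an adjusted p of 0.0052 for Ccnh.

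Ccnb1 had 68.4, 71.2 and 68.1 FPKM in RNA-seq and 139, 87.6 and 116 in RNC-seq. Its kinase Cdk1 had 5.31, 5.64 and 5.12 in RNA-seq and 10.2, 6.53 and 8.02 in RNC-seq. The groups did not overlap for either gene. The log2 difference was 0.70 ± 0.17 (adjusted p = 0.0101) for Ccnb1 and 0.59 ± 0.18 (adjusted p = 0.0303) for Cdk1. Ccnb2, which also partners Cdk1, gave -0.20 ± 0.12 (adjusted p = 0.206), and its groups overlapped. Ccnc had 9.50, 7.42 and 7.14 in RNA-seq and 17.7, 9.19 and 14.8 in RNC-seq, a log2 difference of 0.75 ± 0.24 (adjusted p = 0.0362), and its groups overlapped.

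RNC-seq replicate 2 was the lowest RNC-seq library for all 5 of these genes, in Igf2bp3+/- and again in Igf2bp3-/-. The summed spermatocyte markers moved the same way in RNC-seq, with 226, 124 and 184 FPKM in Igf2bp3+/- replicates 1 to 3 and 146, 111 and 175 in Igf2bp3-/-. The sum was led by Sycp3, Spo11 and Hormad1, and not every listed marker moved so. In Igf2bp3-/- RNC-seq, Spo11 was lowest in replicate 1 (40.6, 41.2 and 57.2), and Sycp2 and Dmc1 were lowest in replicate 3. In Igf2bp3+/- RNC-seq, Piwil1 was lowest in replicate 1 (5.25, 5.55 and 6.46). Replicate 2 was the highest RNC-seq library for Dmc1 in Igf2bp3+/- (0.478, 0.596 and 0.495). In Igf2bp3-/- it was the highest for Ovol1 (5.31, 6.01 and 3.64) and Piwil1 (8.16, 9.04 and 5.20). The part of spermatocyte markers in the values of the 5 genes was not tested. Cdk1 and Ccnc did not pass without Igf2bp3+/- RNA-seq replicate 2 or 3 or without RNC-seq replicate 1 or 3, which left 3 members above. Ccna1 was at 209, 229 and 222 FPKM in RNC-seq, which overlapped its RNA-seq values, and its log2 difference was -0.05 ± 0.11 (adjusted p = 0.744).

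Among the members below, Ccnk had the smallest p. Its FPKM was 70.1, 90.1 and 83.8 in RNA-seq and 27.0, 31.7 and 34.4 in RNC-seq, with a log2 difference of -1.38 ± 0.14 (adjusted p = 0.000235). Its kinases gave still larger differences from lower levels. Cdk13 had 2.72, 4.01 and 3.16 in RNA-seq and 0.631, 1.08 and 0.806 in RNC-seq, and Cdk12 had 1.35, 1.48 and 1.32 against 0.528, 0.331 and 0.260. The log2 difference was -1.86 ± 0.25 (adjusted p = 0.000662) for Cdk13 and -1.69 ± 0.27 (adjusted p = 0.00159) for Cdk12. For each of Ccnk, Cdk12 and Cdk13, all RNC-seq libraries were below all RNA-seq libraries.

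Cdk19 had 8.41, 9.16 and 9.10 FPKM in RNA-seq and 3.86, 3.13 and 4.08 in RNC-seq, a log2 difference of -1.26 ± 0.16 (adjusted p = 0.000525). Its paralog Cdk8, which binds the same cyclin and Mediator, differed by -0.01 ± 0.14 (95% interval -0.33 to 0.30). Cdk11b, a kinase tied to splicing, had 11.0, 10.9 and 9.90 in RNA-seq and 3.31, 3.59 and 6.46 in RNC-seq (-1.30 ± 0.24, adjusted p = 0.0033). Ccnt2 differed by -1.45 ± 0.28 (adjusted p = 0.0037), and Ccnl2, a partner of Cdk11, by -0.45 ± 0.15 (adjusted p = 0.0401). Ccnl1 differed by -0.08 ± 0.13 and did not pass (adjusted p = 0.634).

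The 3 PCTAIRE kinases were all below: Cdk16 by -0.65 ± 0.14 (adjusted p = 0.0067), Cdk17 by -0.60 ± 0.16 (adjusted p = 0.0153) and Cdk18 by -0.99 ± 0.27 (adjusted p = 0.0188). The other members below were Ccni (-0.82 ± 0.16, adjusted p = 0.0035), Ccnd3 (-0.67 ± 0.16, adjusted p = 0.0104), Ccnb3 (-1.17 ± 0.36, adjusted p = 0.028) and Ccnf (-0.41 ± 0.14, adjusted p = 0.041). Leaving out a library ended the call of Cdk17 and Cdk18 (without RNA-seq replicate 1 or 2), Ccnb3 (RNA-seq 1 or 3, RNC-seq 2 or 3), Ccnl2 (any RNA-seq replicate, RNC-seq 1 or 2) and Ccnf (any RNA-seq replicate, RNC-seq 1 or 3), with log2 differences of the same sign. Ccnd3 had 113, 121 and 130 FPKM in RNA-seq against 63.1, 95.7 and 73.3 in RNC-seq, with no overlap. By role, 4 of 7 transcription kinases, 3 of 7 transcription cyclins, 3 of 7 other kinases, 3 of 10 cell cycle cyclins, 1 of 6 atypical cyclins and 0 of 4 cell cycle kinases were below.

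FPKM is relative to the rest of its library, so these are differences in share. The median over all genes was -0.14, and that over the members -0.27. Centring every library on its median moved these to 0.04 and -0.10. It left the same 5 members above and 10 below, without Ccnd3, Ccnb3, Ccnl2 and Ccnf, and moved the share of called genes that were above from 39.7% to 54.1%.

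**Figure D2:**
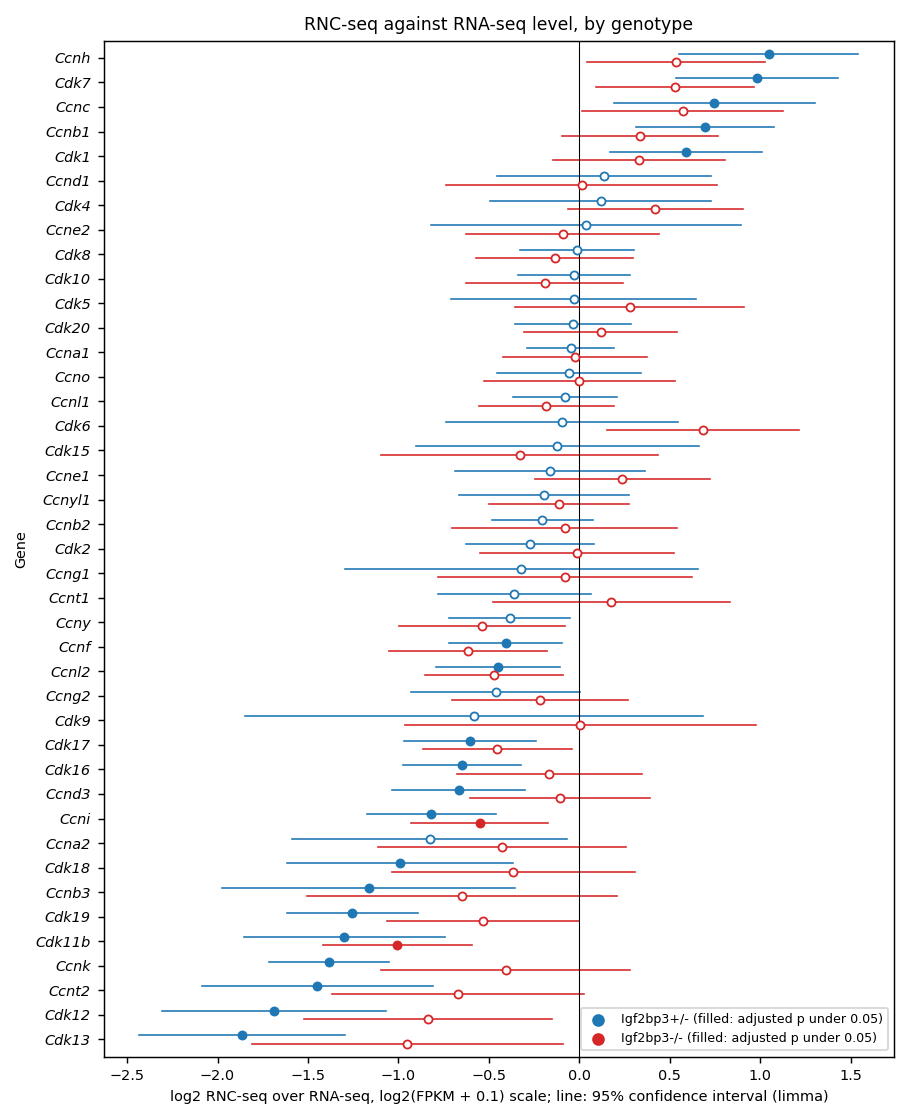
The log2 difference between RNC-seq and RNA-seq for each tested member in Igf2bp3+/- (blue) and Igf2bp3-/- (red), with 95% confidence intervals from limma and filled points where the adjusted p was under 0.05. The 5 members above in Igf2bp3+/- are at the top, Cdk13 at -1.86 is at the bottom, and the red points lie closer to 0 for most members that passed in Igf2bp3+/-.

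**Figure D3:**
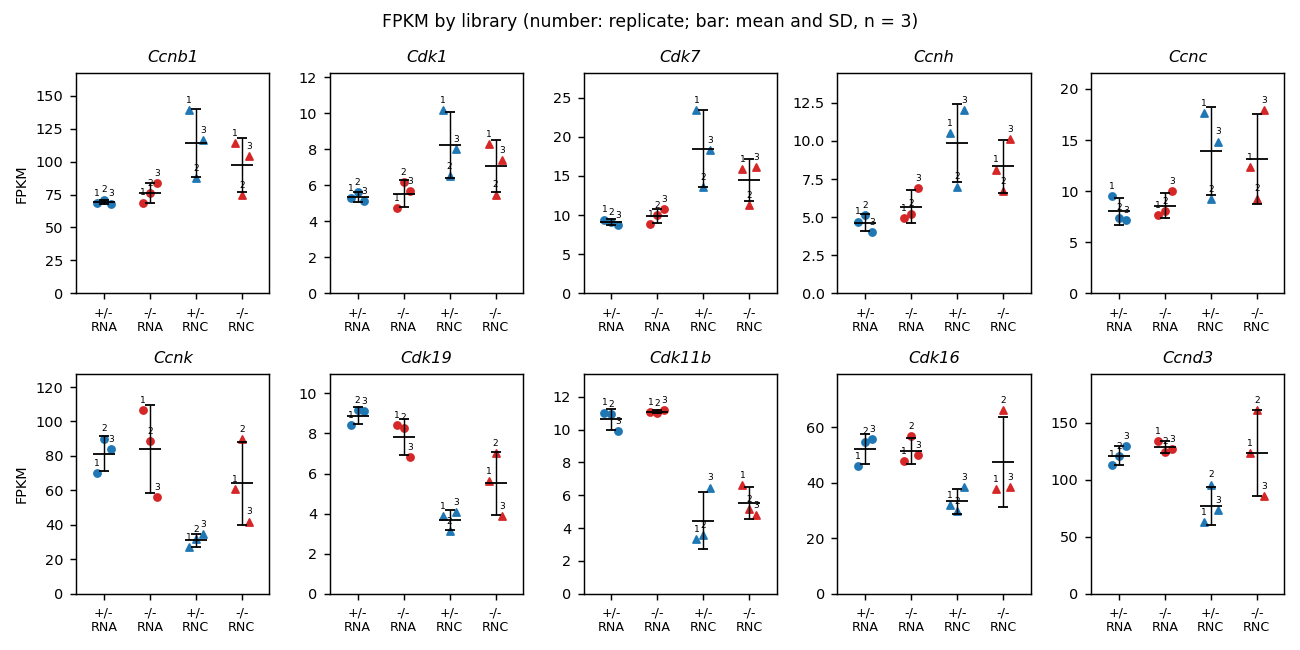
FPKM of 10 members in each library from 0, with the replicate number beside each point and the mean and SD (n = 3) of each group. RNC-seq replicate 2 is lowest for the 5 genes in the upper row in both genotypes, and in Igf2bp3-/- it is the highest RNC-seq point for Ccnk, Cdk19, Cdk16 and Ccnd3.

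The members that passed differed in the length of their coding sequence. Lengths were taken from a representative transcript of the GENCODE M21 annotation, with 1 transcript a gene. The 5 members above had coding sequences of 852 to 1293 bases. Of the 14 below, 12 were longer than 1293 bases, up to 4536 for Cdk13 and 4455 for Cdk12. The exceptions were Ccnd3 with 879 and Ccni with 1134 bases. The medians were 984 bases above, 1660.5 below and 1093.5 for the 22 that did not pass.

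Over the 41 members, Spearman's rho between coding length and the log2 difference was -0.62 in Igf2bp3+/- and -0.70 in Igf2bp3-/-. Over all coding genes tested it was -0.53 (n = 13302) and -0.50 (n = 13540), so a negative relation was common to the table. With the length of the whole transcript it was -0.41 and -0.35 over the members, and -0.495 and -0.451 over all coding genes. Genes are not independent replicates, FPKM is itself divided by transcript length, and all points of a genotype share the same 6 libraries.

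**Figure D4:**
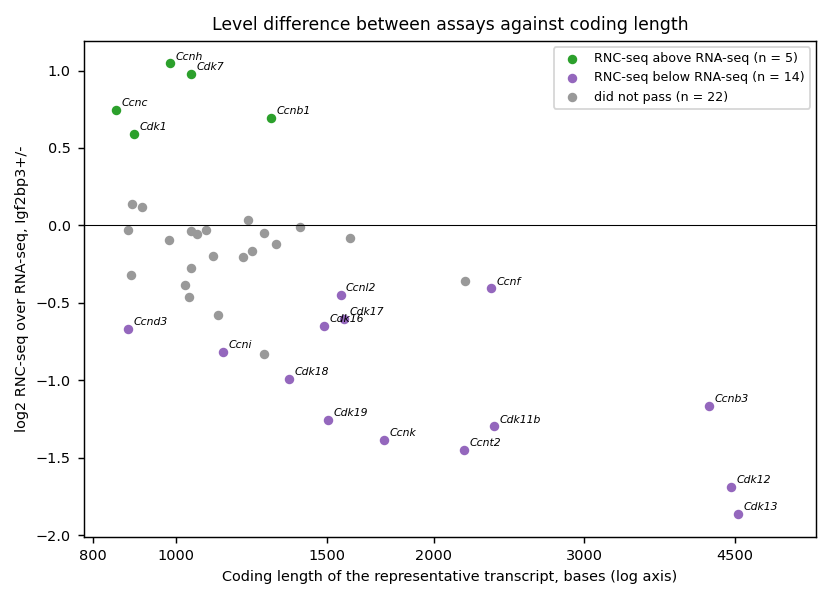
The log2 difference between RNC-seq and RNA-seq in Igf2bp3+/- against coding length on a log axis, with 1 point per tested member and names for those that passed. The 5 members above lie at 852 to 1293 bases, and Cdk12 and Cdk13 lie at the long and low end.

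The bases around the annotated start codon are shown for the 5 members above and for 4 below: Ccnd3 and Ccni, which are short, and Ccnk and Cdk11b, which had the smallest adjusted p in Igf2bp3+/- and in Igf2bp3-/-. Each window has 9 bases before and 1 after the ATG (GRCm38, representative GENCODE M21 transcript), and capitals mark the ATG. The first base of the ATG is at 100730839 on the minus strand of chromosome 13 for Cdk7, at 85189536 on the plus strand of chromosome 13 for Ccnh, at 100786402 on the minus strand of chromosome 13 for Ccnb1, at 69350132 on the minus strand of chromosome 10 for Cdk1 and at 21727884 on the plus strand of chromosome 4 for Ccnc. For the members below it is at 47593655 on the plus strand of chromosome 17 for Ccnd3, at 93202418 on the minus strand of chromosome 5 for Ccni, at 108186426 on the plus strand of chromosome 12 for Ccnk and at 155625544 on the plus strand of chromosome 4 for Cdk11b.
Cdk7: ctcactcgcATGg
Ccnh: ggctacagcATGt
Ccnb1: ggaggagccATGg
Cdk1: tgagtaactATGg
Ccnc: tattattccATGg
Ccnd3: catcgcaggATGg
Ccni: agggataccATGa
Ccnk: cttcaataaATGa
Cdk11b: ttaactcaaATGg

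A strong start context has a purine 3 bases before the ATG and a G right after it. The purine was present in 3 of the 5 members above, in 11 of the 13 below that had a window and in 81.4% of the 43 members with one, against 84.8% of 16065 coding genes. The G was present in 4 of 5, in 7 of 13 and in 67.4%, against 51.1%. Further ATG triplets lay upstream of the start in 2 of the 5 members above and in 8 of the 13 below with a window. The 4 shown had the most of those below, with 6 in Ccnd3, 4 in Ccni, 4 in Ccnk and 6 in Cdk11b. Ccnf, Ccnl2, Ccnt2, Cdk12 and Cdk18, also below, had 0. Ccnt1 and Cdk20, which did not pass, had 4 each. Over all members the share was 55.8%, against 52.6% of coding genes.

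The same comparison in Igf2bp3-/- used separate libraries and called fewer members. Of the 41 tested, 2 passed, against 20.5% of all genes, and both were below, as were 11% of all genes. Cdk11b had 11.0, 11.0 and 11.2 FPKM in RNA-seq and 6.61, 5.16 and 4.78 in RNC-seq, with a log2 difference of -1.01 ± 0.18 (adjusted p = 0.0076). Ccni had 30.2, 27.6 and 23.5 in RNA-seq and 17, 20.1 and 18.2 in RNC-seq, with -0.55 ± 0.17 (adjusted p = 0.0468). The groups of neither gene overlapped.

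All 19 members that passed in Igf2bp3+/- had the same sign in Igf2bp3-/-. Of all genes tested in both, passed or not, 15753 of 19055 had the same sign. Of the 19, 11 had an unadjusted p under 0.05 in Igf2bp3-/-, as did 35.9% of all genes, which were not selected by the Igf2bp3+/- call. Only 2 of the 19 passed in both genotypes. Over all genes, 8636 passed in Igf2bp3+/-, and 1609 were above and 1911 below in both genotypes. Ccnh gave 0.53 ± 0.22 (adjusted p = 0.111), Cdk7 0.53 ± 0.19 (adjusted p = 0.0823) and Ccnk -0.41 ± 0.31 (adjusted p = 0.371). RNC-seq replicate 2 of Igf2bp3-/- was the lowest RNC-seq library for the 5 members above and the highest for 8 of the 14 below. Without it 10 of 42 members passed, 4 above and 6 below, and the share of all genes rose to 32.7%. Without Igf2bp3-/- RNA-seq replicate 1, 2 or 3, or without RNC-seq replicate 3, only Cdk11b passed (5.75% to 12.2% of all genes), and without RNC-seq replicate 1, 4 members passed (14.1% of all genes). Whether the difference between assays changed with genotype is the translational efficiency test given further on, which no member passed.

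The genotype comparisons asked whether losing the second copy of Igf2bp3 changed the members. In RNA-seq no member passed in limma. Of 41 tested, 0 had an adjusted p under 0.05 (0.256% of all genes did) and 3 had an unadjusted p under 0.05 (15.7% of all genes), a count of 1 to 3 with single libraries left out. The levels of the genotypes did not overlap for 8 members, 3 higher and 5 lower, against 22.7% of all genes (14.1% higher and 8.68% lower). The median log2 change was 0.03 over the members and 0.05 over all genes.

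The smallest p was that of Ccne1, a cyclin of the start of DNA replication. It had 2.38, 1.82 and 2.15 FPKM in Igf2bp3+/- and 1.35, 1.56 and 1.5 in Igf2bp3-/-, with no overlap (-0.49 ± 0.16, adjusted p = 0.230). Ccnb2 had 158, 157 and 147 against 164, 182 and 213, again with no overlap (0.27 ± 0.11, adjusted p = 0.287). Cdk13 had 2.72, 4.01 and 3.16 against 2.69, 2.56 and 1.69 (-0.50 ± 0.22, adjusted p = 0.310). The highest gene of each role was close to 0 or had an interval around it, with 0.07 ± 0.09 for Ccna1, 0.00 ± 0.21 for Ccnk, -0.05 ± 0.11 for Ccni, 0.04 ± 0.13 for Cdk1, 0.06 ± 0.10 for Cdk11b and -0.02 ± 0.11 for Cdk16. The 95% interval of Ccna1 was -0.14 to 0.27.

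In RNC-seq no member passed either. Of 40 tested, 0 had an adjusted p under 0.05 (0.115% of all genes) and 5 had an unadjusted p under 0.05 (6.48% of all genes), all higher in Igf2bp3-/- (5.36% of all genes). These were Ccnk, Cdk5, Ccnd3, Cdk4 and Cdk6, the last 2 of which are named because of their values. The count at an unadjusted p depended on single libraries: it was 1 without Igf2bp3-/- replicate 2, 2 without Igf2bp3+/- replicate 2 or without Igf2bp3+/- replicate 3, 3 without Igf2bp3-/- replicate 1 and 7 without Igf2bp3-/- replicate 3. No overlap between genotypes was found for 6 members, 5 higher and 1 lower, against 11.3% of all genes (9.44% higher and 1.85% lower). The median log2 change was 0.27 over the members and 0.13 over all genes, and 0.15 and 0.01 with every library centred on its median. Both were 0.09 without Igf2bp3-/- replicate 1, and both 0.16 without Igf2bp3+/- replicate 1. The members were at 0.12 and all genes at 0.07 without Igf2bp3+/- replicate 2, and at 0.18 and 0.14 without Igf2bp3-/- replicate 2. Without replicate 3 of Igf2bp3+/- or replicate 3 of Igf2bp3-/-, the members were at 0.30 and all genes at 0.15.

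Ccnk had 27.0, 31.7 and 34.4 FPKM in Igf2bp3+/- and 60.5, 89.8 and 41.9 in Igf2bp3-/- RNC-seq. All knockout libraries were above all controls, and the log2 change was 0.98 ± 0.27 (95% interval 0.40 to 1.56, adjusted p = 0.587). Cdk5 had 0.841, 0.667 and 0.737 against 0.919, 1.70 and 1.81 (0.85 ± 0.33, adjusted p = 0.744), also with no overlap. Ccnd3 had 63.1, 95.7 and 73.3 against 123, 161 and 85.8, and its groups overlapped (0.65 ± 0.26, adjusted p = 0.745). Cdk4 had 1.75, 1.2 and 2.08 against 3.31, 2.67 and 2.27, with no overlap, and Cdk6 had 2.42, 1.48 and 1.19 against 2.14, 2.80 and 3.30, with overlap.

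Leydig markers in RNC-seq summed to 7.21 to 14.9 FPKM in Igf2bp3+/- and 53.9 to 105 in Igf2bp3-/-, and macrophage and blood markers to 15.2 to 17.2 and 21.6 to 40.1. Peritubular and interstitial markers summed to 1.32 to 1.81 and 4.02 to 5.62 in RNC-seq, and to 2.45 to 3.08 and 7.45 to 9.30 in RNA-seq. The RNA-seq sum was led by Dcn (0.665 to 1.01 and 3.36 to 4.73) and Igfbp6 (0.428 to 0.625 and 1.98 to 2.63). Col1a1, Col3a1 and Pdgfra were also higher in Igf2bp3-/- RNA-seq without overlap. Acta2 and Cnn1 overlapped between genotypes there, and Myh11 was lower in Igf2bp3-/- (0.195 to 0.256 and 0.139 to 0.184). No marker of these lists was at 0 in all libraries. The part of these markers in the values above was not tested. In bulk libraries a change in the number of cells of a type and a change in RNA per cell cannot be told apart.

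**Figure D5:**
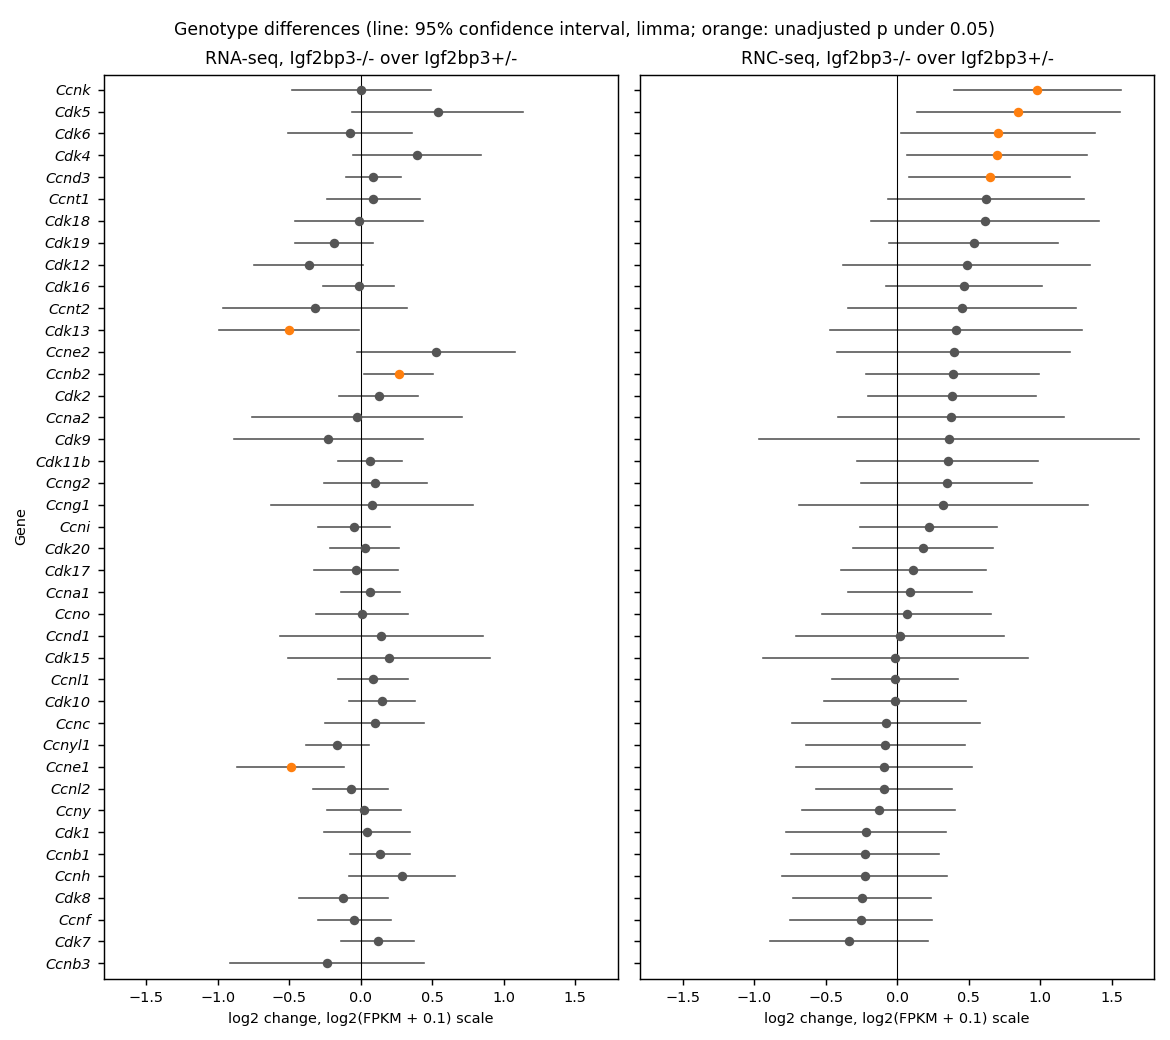
The log2 change between genotypes in RNA-seq (left) and RNC-seq (right) for each tested member, with 95% confidence intervals from limma and orange points at an unadjusted p under 0.05. Ccnk is at 0.00 in RNA-seq and at 0.98 in RNC-seq, the intervals are wider in RNC-seq, and no adjusted p was under 0.05.

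Translational efficiency (TE) is the RNC-seq level over the RNA-seq level, and its change between genotypes was tested as the interaction of assay and genotype over all 12 libraries. Of 40 members, 0 had an adjusted p under 0.05 (0.00543% of all genes, a single gene) and 2 had an unadjusted p under 0.05 (7.13% of all genes), both higher in Igf2bp3-/- (5.54% of all genes). With single libraries left out the latter count ran from 0 (without Igf2bp3-/- RNA-seq replicate 3) to 7 (without Igf2bp3-/- RNC-seq replicate 3). The smallest were Ccnk at 0.98 ± 0.37 (95% interval 0.18 to 1.78, adjusted p = 0.686), Cdk19 at 0.72 ± 0.29 (adjusted p = 0.686) and Cdk6 at 0.78 ± 0.37 (adjusted p = 0.708). The Ccnk value combines an RNA-seq change of 0.00 with the RNC-seq change given above. Among the members above in Igf2bp3+/-, Ccnh gave -0.51 ± 0.32 and Cdk7 -0.45 ± 0.28, and neither passed. The median change was 0.20 over the members and 0.06 over all genes.

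Genes that regulate cyclins and CDKs were taken from lists of inhibitors, activating enzymes, small subunits, degradation factors, Rb and E2F proteins and kinase complex partners, of which 40 of 43 were in the table. In RNA-seq, RNC-seq and TE, 0 passed between genotypes. Between assays in Igf2bp3+/-, 3 of 35 were above and 15 below, against 17.3% and 26.3% of all genes. Those above were the inhibitors Cdkn3 (1.35 ± 0.16, adjusted p = 0.00035) and Cdkn2d (0.87 ± 0.11, adjusted p = 0.000578), with mean FPKM of 132 and 29.3 in RNA-seq and 339 and 53.6 in RNC-seq, and the Rb relative Rbl2 (0.47 ± 0.13). Both inhibitors were also above in Igf2bp3-/-, with 0.80 ± 0.17 and 0.86 ± 0.20.

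Of the 8 partners of the CDK8 and CDK9 complexes, 6 were below in Igf2bp3+/- (26.3% of all genes) and 3 in Igf2bp3-/- (11% of all genes). Those below in Igf2bp3+/- included Med12 (-2.01 ± 0.24) and Med13 (-1.62 ± 0.20), partners of Cdk8 and Cdk19 in Mediator, and Larp7 (-0.70 ± 0.18), which holds the Cdk9 complex inactive. Among enzymes that set CDK phosphorylation, the phosphatase Cdc25a (-1.42 ± 0.18) and the inhibitory kinases Wee1 (-0.99 ± 0.34) and Pkmyt1 (-0.62 ± 0.14) were below. In Igf2bp3-/-, 3 of 36 regulators were above and 8 below, against 9.48% and 11% of all genes, and those below included Cdc25a, Med12 and Larp7.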

How the data were processed

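RNA-seq and RNC-seq libraries of sorted spermatids were compared between Igf2bp3+/- and Igf2bp3-/- mice. Per the labels and methods, the authors trimmed reads with Trim Galore 0.6.6, aligned them to GRCm38 with Hisat2 and quantified them with StringTie 2.1.7. The authors deposited FPKM, with no read counts, so read depth is unknown and no counting interval could be given. Relative depth, estimated from the smallest values, was 1 in Igf2bp3-/- RNA-seq replicate 1 and 0.370 to 0.563 in the other libraries. The labels name a directional Illumina kit and the methods a full-length method on another instrument. The table held 28668 symbols, of which 25 had become dates and were dropped, with 0.0995% of the FPKM.

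Values were tested as log2(FPKM + 0.1), a scale that understates changes of low genes, with limma 3.58.1 in R 4.3.3 (two-sided, intensity trend), among all genes with a mean FPKM above 0.1 in the libraries compared (in each assay for TE). P-values were Benjamini-Hochberg adjusted over all genes tested, with a limit of 0.05. With 3 against 3 libraries an exact permutation test cannot go below 0.1, so none was used. The members and lists were chosen with earlier results of these data known. Differences with errors are given for members that passed, the highest gene of each role and, where none passed, the 3 smallest p, together with values of direct partners named after they were seen. Near copies were found with BLAST 2.17.0 (95% identity over 50% of the transcript). The fit was tested on simulated data. Alternatives were another pseudocount, filter, scaling, threshold, a replicate block, a joint fit and leaving out each library.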

Additional observations from a re-analysis of the deposited data

How the results depend on the processing

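No member passed between genotypes in RNA-seq, RNC-seq or TE under any alternative fit at an adjusted p under 0.05. With an unadjusted p under 0.05 and a 1.5-fold change, 5 of 40 members were higher in RNC-seq (4.73% of all genes) and 2 of 40 in TE (5.19% of all genes). Between assays in Igf2bp3-/-, the number below (2) became 1 with no filter, 1 with centred libraries, 3 with a pseudocount of 1, with a mean FPKM above 1 or with quantile normalization, 4 with the unadjusted limit and 6 with a fit over all 12 libraries, and the number above (0) became 1 with centred libraries and 1 with the unadjusted limit. Leaving out each library gave 3 to 5 members above and 10 to 13 below in Igf2bp3+/-, and 0 to 4 above and 1 to 6 below in Igf2bp3-/-. The causes were not tested. Of the members named between assays, none changed sign. In Igf2bp3+/-, Ccnf, Ccnl2, Ccnb3, Ccnc and Cdk1 lost the call under 5 or more alternatives each, whereas Ccnk, Cdk19, Cdk13, Cdk12, Cdk11b, Ccni, Ccnt2, Cdk7, Ccnh, Cdk16 and Ccnb1 kept it where they were tested. In Igf2bp3-/-, Cdk11b kept it and Ccni lost it under 9.

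By the methods RNA-seq and RNC-seq libraries came from parts of the same extracts, but the labels do not say which share an extract. The main fits between assays and for TE left this pairing out. Deviations of same-numbered libraries correlated between -0.10 and 0.21 across assays, and between -0.08 and 0.24 across genotypes. These values do not settle whether the numbers mark pairs, so the numbers were not taken to pair libraries. With the replicate number as a block, 0 members passed between genotypes or in TE, 5 were above and 14 below in Igf2bp3+/-, and 0 above and 2 below in Igf2bp3-/-, while the count over all genes in RNA-seq went from 52 to 4. Without read counts, the file does not show what depth limits, and low members such as Cdk9, Ccnb3 and Ccng1 rest on values under 1 FPKM.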
